A study of Rattus norvegicus with 12 samples.

Results

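Endothelial cells, which line every cardiac vessel and the heart's chambers, were followed through 10 marker genes in left ventricle punches of rats. The members were the rows of the deposited gene table whose symbol was on a fixed list, which found 9 of the 10 (Kdr, Flt1, Tek, Tie1, Eng, Cdh5, Vwf, Egfl7 and Cav1) among 32735 rows. Pecam1 was not analysed here. All 9 passed the filter on low counts and stood among the 7511 genes tested. The study compared 6 adult rats that had been placed with a resident rat and defeated daily for 8 days in a row (RSD) with 6 adult unhandled controls (CTR). All were of the wild-type Groningen strain, with 1 library per rat, and no other allele or agent is named. The series describes male rats, while RSD 40 is labelled female. Its reads of the Y-linked genes Eif2s3y and Kdm5d numbered 24 and 35, against 8 to 33 and 7 to 34 in the other 11 libraries, so its sex label goes against these transcripts. It was kept, and the leading results are given with and without it.

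Libraries held 2062798 to 3731108 reads, each read being worth 0.268 to 0.485 CPM (a scale with the same total in every library), and the mitochondrial genome took 49.7% to 58.4% of them. The 14 cardiomyocyte markers summed to 57069 ± 3120 normalised CPM in CTR and 57100 ± 3155 in RSD (SD, n = 6 each), so the muscle markers of the labelled tissue were present. The endothelial markers had 34 to 230 reads per gene and library, so none of them was at 0 in any library. Because whole tissue was measured, a difference in the number of endothelial cells and a difference in RNA per endothelial cell cannot be told apart.

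Growth and stability of vessels are set by receptors on the endothelial surface. Vascular endothelial growth factors act through Kdr and Flt1, angiopoietins through Tek with its relative Tie1, and circulating bone morphogenetic proteins through a complex that holds endoglin (Eng). VE-cadherin (Cdh5) joins neighbouring cells, Vwf is stored in granules and released to catch platelets, Egfl7 is secreted into the matrix, and Cav1 builds caveolae. In the heart the capillary endothelium also passes fatty acids and signals to the muscle cells beside it.

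Of the 9 markers, Eng and Tek had the widest separation between groups, both with higher levels in RSD, and neither passed after adjustment over all genes. Endoglin averaged 33.6 ± 2.91 normalised CPM in controls and 45.9 ± 9.45 after defeat. Tek averaged 16.2 ± 3.73 and 22.6 ± 2.06 (SD, n = 6 each). The other 7 had log2 fold changes, RSD over CTR, between −0.17 (Cav1) and 0.18 (Egfl7). At an adjusted p under 0.05 by limma, 0 of 9 markers were called, where 2 of 7511 genes were (0.0266%). edgeR, DESeq2 and limma-voom also called 0 of the 9. At an unadjusted p under 0.05 there were 2 of 9, both higher in RSD, where 3.89% of all genes were higher, 4.47% lower and 8.36% either. Of the 9, 6 lay above 0 and 3 below, against 50.6% of all genes above 0, and their median log2 fold change was 0.09, against 0.0034 for all genes tested. The count of all genes called was 41 without CTR 22, and 0 without CTR 23, CTR 24, CTR 27, RSD 34 or RSD 40. It was 1 without CTR 25, CTR 26, RSD 35 or RSD 38. In each of these fits 0 markers were called.

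The start regions of the genes for endoglin and for the receptors Tie1, Kdr and Flt1 are shown because ETS factors, which bind a GGAA core, are the best known regulators of endothelial genes, and because endoglin, which had one of the widest separations between groups, can be set beside 3 receptors that had none. These are the 4 of the 9 markers with a single entry in RefSeq's table for GRCr8, each 300 bases long, mostly before the start. Tek, the other marker with the widest separation, had no entry there under its symbol, so endoglin alone stands for that side. Capitals mark the letters CAGGAA or CCGGAA on either strand, which read TTCCTG or TTCCGG where they lie on the opposite one.
Eng, chr3:36332029-36332328, plus strand: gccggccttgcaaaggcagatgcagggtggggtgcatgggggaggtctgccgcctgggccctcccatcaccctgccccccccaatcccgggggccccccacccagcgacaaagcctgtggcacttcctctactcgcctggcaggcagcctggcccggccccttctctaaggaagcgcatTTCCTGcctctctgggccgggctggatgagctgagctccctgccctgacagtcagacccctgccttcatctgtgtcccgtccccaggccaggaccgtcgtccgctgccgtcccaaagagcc
Tie1, chr5:137304932-137305231, minus strand: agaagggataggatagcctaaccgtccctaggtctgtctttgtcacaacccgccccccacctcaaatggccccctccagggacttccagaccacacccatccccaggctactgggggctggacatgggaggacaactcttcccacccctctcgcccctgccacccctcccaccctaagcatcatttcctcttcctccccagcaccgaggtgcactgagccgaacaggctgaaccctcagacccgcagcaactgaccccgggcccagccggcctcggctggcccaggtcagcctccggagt
Kdr, chr14:32571813-32572112, plus strand: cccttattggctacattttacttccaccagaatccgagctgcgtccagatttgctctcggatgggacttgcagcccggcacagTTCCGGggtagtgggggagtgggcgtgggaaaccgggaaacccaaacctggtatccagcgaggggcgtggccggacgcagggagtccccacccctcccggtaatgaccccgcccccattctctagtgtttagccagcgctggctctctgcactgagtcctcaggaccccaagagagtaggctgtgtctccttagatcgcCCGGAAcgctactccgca
Flt1, chr12:12333180-12333479, plus strand: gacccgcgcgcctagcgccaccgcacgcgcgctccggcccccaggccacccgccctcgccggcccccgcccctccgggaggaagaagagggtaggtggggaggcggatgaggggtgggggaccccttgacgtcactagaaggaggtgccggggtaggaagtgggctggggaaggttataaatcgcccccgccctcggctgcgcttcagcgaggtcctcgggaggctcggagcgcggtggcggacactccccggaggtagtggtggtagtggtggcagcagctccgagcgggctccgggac
Endoglin's region held 1 such match and that of Kdr held 2, while those of Tie1 and Flt1 held 0. Of 33469 promoters of the same length, 40% hold at least 1, so a match here is a description of the letters only. The core GGAA by itself was not counted. It also stands unmarked in these regions, on 1 strand or the other, those of Tie1 and Flt1 included. A count of 0 therefore does not mean that the core is absent. The GC box GGGCGG, searched on both strands and with 0 overlaps with the marked letters, had 3 matches for Flt1, 1 each for Kdr and Tie1 and 0 for Eng, and 33.1% of all promoters hold it. TATAAA, on both strands, had 1 match, for Flt1, and 14.2% of all promoters hold it. G and C made up 61% (Kdr) to 72.7% (Flt1) of these regions.

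Endoglin (ENSRNOG00000050190) ran from 29.9 through a median of 34.4 to 36.5 normalised CPM in CTR, and from 34.6 through 45.4 to 60.4 in RSD. Controls lay close together, with a coefficient of variation of 8.66% where counting reads alone gives 9.98%. RSD libraries spread over 20.6%, against 9.05% from counting. Of the 6 RSD libraries, 5 lay above the highest control, and RSD 34 lay within the control range. The log2 fold change was 0.42 (SE 0.14, 95% interval 0.13 to 0.71, unadjusted p = 0.00621, limma adjusted p = 0.435). It was 0.43 without RSD 40 (adjusted p = 0.458) and lowest, at 0.34, without RSD 39, the library with the highest value. Over 22 alternative settings its unadjusted p ran from 0.00215 to 0.0274 and its adjusted p from 0.152 to 0.771. Within a library endoglin made up 9.90% ± 1.03 of the summed marker reads in CTR and 12.5% ± 2.16 in RSD, a share that no scaling between libraries can alter. The share also depends on the other markers. It ran from 8.96% to 11.8% in CTR and from 9.75% to 14.9% in RSD, so the groups overlap, and it was not tested.

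**Figure D1:**
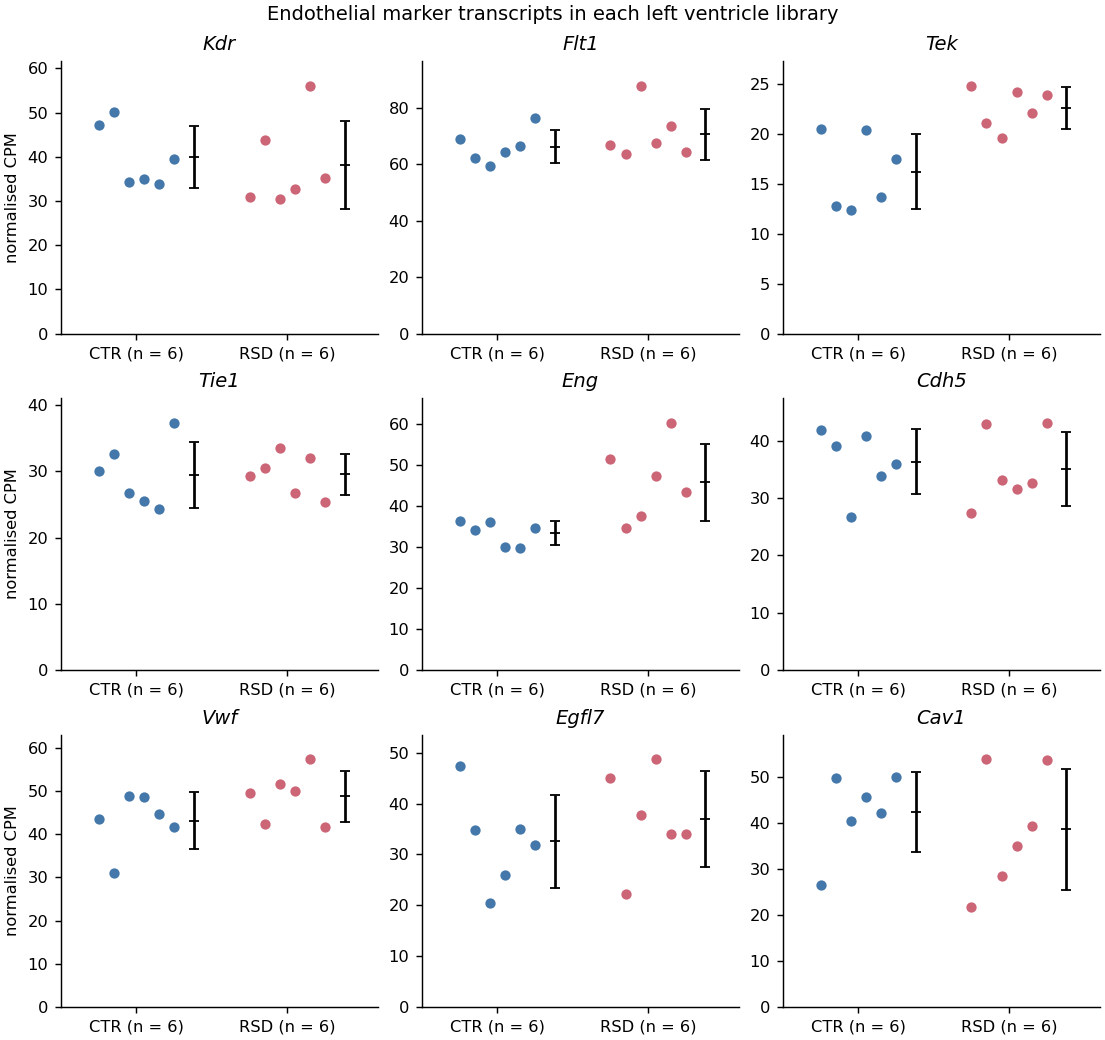
Normalised CPM (y axis, from 0) of 9 endothelial markers in each of the 12 libraries, ordered by library number within CTR (blue) and RSD (red), with the group mean and SD in black. Eng and Tek each have 5 RSD libraries above the highest control, and the groups overlap for all 9 genes.

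Endoglin works with the receptor Acvrl1 to relay BMP9 and BMP10. Of 20 genes listed for this branch of the TGF beta pathway, 13 were tested, 8 above 0 and 5 below, with a median of 0.01, and 0 passed at either threshold. Gdf2, which encodes BMP9, and Bmp10 were listed at 0 in all libraries, as was the inhibitory Smad6. Hsp90aa1, a chaperone that every cell uses, was also listed at 0 in this table, so a listed 0 does not show that a gene was not expressed. Tgfb2, a ligand, measured 17.9 and 23.0 normalised CPM in CTR and RSD (log2 fold change 0.36, unadjusted p = 0.0547). Id3, a target of BMP signalling, measured 8.42 and 5.94 (−0.45, unadjusted p = 0.0597). Smad7, an inhibitor induced by the pathway, had 0.32 (unadjusted p = 0.0984). Tgfb2 and Smad7 thus lay on the side of endoglin and Id3 on the other, none past the threshold. They were named for their smallest p, and the 13 tested genes showed no shared side.

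Tek (ENSRNOG00000008587), the angiopoietin receptor also called Tie2, ran from 12.4 through a median of 15.6 to 20.4 normalised CPM in CTR and from 19.5 through 23.0 to 24.8 in RSD. Controls were split between low values, near 12 to 14, in CTR 23, CTR 24 and CTR 26 and higher ones in CTR 22, CTR 25 and CTR 27. Of the RSD libraries 5 lay above the highest control, and RSD 35 lay below CTR 22 and CTR 25. The log2 fold change was 0.48 (SE 0.17, 95% interval 0.13 to 0.83, unadjusted p = 0.00886, limma adjusted p = 0.461). It was 0.46 without RSD 40 (adjusted p = 0.474), lowest at 0.41 without CTR 24 and highest at 0.55 without CTR 25. Its unadjusted p was under 0.05 in all 22 alternative settings, from 0.00374 to 0.0254, while its adjusted p ran from 0.148 to 0.794. Tek rests on 34 to 78 reads per library, the fewest of the 9, and counting alone gives a coefficient of variation of 14.8% in CTR and 12.8% in RSD. The measured ones were 23.1% and 9.12%.

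Tie1 (ENSRNOG00000020173), the orphan relative that associates with Tek, ran from 24.4 through 28.3 to 37.3 normalised CPM in CTR and from 25.4 through 29.9 to 33.5 in RSD. The RSD range lay inside that of the controls. Its log2 fold change was 0.01 (95% interval −0.28 to 0.31, limma adjusted p = 0.991), and its sign turned with CPM as deposited and without CTR 24, CTR 25, CTR 26, RSD 35 or RSD 39. The ratio of Tek to Tie1 inside a library ran from 0.391 to 0.797 in CTR (median 0.515) and from 0.582 to 0.940 in RSD (median 0.768). These ranges overlap, and the ratio was not tested because it was chosen with the values known. Of 8 further genes of the angiopoietin pathway 2 reached the filter, and neither passed at either threshold. Angpt1, the activating ligand made by mural cells, measured 21.7 and 27.2 normalised CPM (log2 fold change 0.29, unadjusted p = 0.103). Ptprb, the phosphatase that damps Tek, measured 31.2 and 34.0 (0.17, unadjusted p = 0.365).

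The VEGF receptors did not separate the groups. Kdr (ENSRNOG00000046829), the main signalling receptor, ran from 33.8 through 37.2 to 50.2 normalised CPM in CTR and from 30.5 through 33.9 to 56.0 in RSD. Most libraries of both groups lay near 30 to 44, with CTR 22, CTR 23 and RSD 39 above. Flt1 (ENSRNOG00000000940), which binds the same ligand tightly and limits it, ran from 59.5 through 65.3 to 76.4 in CTR and from 63.7 through 67.2 to 87.8 in RSD, with RSD 35 alone above the controls. Its soluble form ends at another site, and which form the 3' end reads came from was not examined. Log2 fold changes were −0.08 for Kdr (95% interval −0.40 to 0.24, limma adjusted p = 0.919) and 0.09 for Flt1 (−0.15 to 0.32, adjusted p = 0.88). Kdr ran from −0.20 without RSD 39 to −0.015 without CTR 23, and Flt1 had 0.022 without RSD 35. The 95% intervals allow for Kdr a difference down to −0.40 and for Flt1 up to 0.32. The ratio of Flt1 to Kdr inside a library was 1.70 ± 0.287 in CTR and 1.95 ± 0.562 in RSD.

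**Figure D2:**
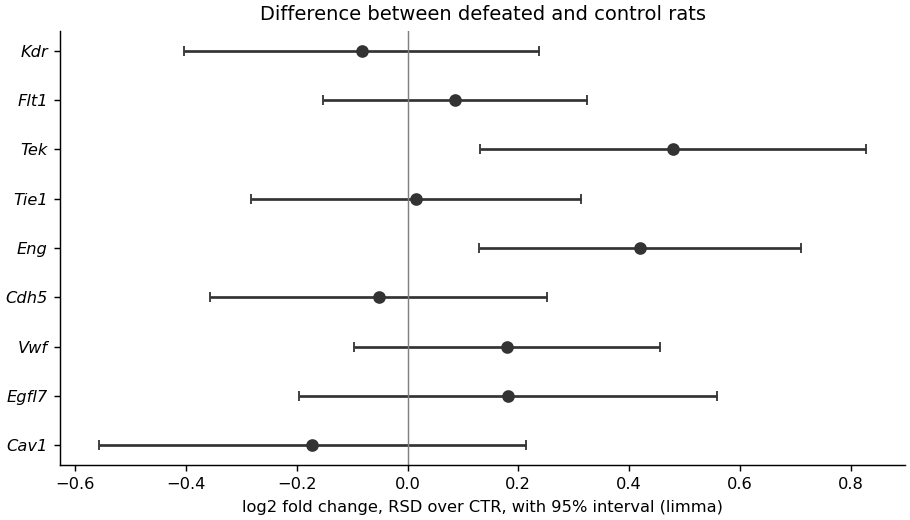
Log2 fold change, RSD over CTR, on the log2(CPM + 1) scale (x axis) of each endothelial marker (y axis), with the 95% interval from limma. The intervals of Eng (0.13 to 0.71) and Tek (0.13 to 0.83) lie above 0 before adjustment for the 7511 genes tested, and those of the other 7 include 0.

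Vegfa, the principal ligand of both receptors, averaged 154 ± 41.3 normalised CPM in controls and 201 ± 67.1 after defeat (SD). Its log2 fold change was 0.35 (SE 0.17, unadjusted p = 0.045, limma adjusted p = 0.58). Vegfa was the 1 of 7 tested genes among 12 listed for the VEGF pathway with an unadjusted p under 0.05. Of the 7, 3 lay above 0 and 4 below, with a median of −0.01. Summed over the 12 listed genes, RSD 33, the library with the fewest reads, stood at 638.6 normalised CPM. The other RSD libraries stood at 424.6 to 501.1 and the CTR libraries at 392.7 to 510.5. How far the Vegfa difference rests on RSD 33 was not tested. Vegfc, a ligand of the lymphatic receptor Flt4, had 0.32 and the coreceptor Nrp1 had 0.08 (limma adjusted p = 0.786 and 0.893).

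VE-cadherin, the adhesion molecule of the endothelial junction, did not separate the groups. Cdh5 (ENSRNOG00000013324) ran from 26.7 through 37.5 to 41.8 normalised CPM in CTR and from 27.3 through 32.8 to 43.1 in RSD. Low values came from CTR 24 and RSD 33, and the ranges nearly coincide. On the log2 scale the difference was −0.05 (95% interval −0.36 to 0.25, limma adjusted p = 0.952), and 0.01 without RSD 33. Of 10 other junction genes tested from 14 listed, 6 lay below 0 and 4 above, with a median of −0.05, and 1 had an unadjusted p under 0.05. That gene was Jam2, an adhesion molecule, at 49.5 and 41.4 normalised CPM (log2 fold change −0.26, unadjusted p = 0.0481, limma adjusted p = 0.589). Esam, also of endothelial junctions, had −0.27 (unadjusted p = 0.0585), and the catenin Ctnna1 had −0.37 (unadjusted p = 0.0669).

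The secreted products did not pass. Vwf (ENSRNOG00000019689) ran from 31.1 through 44.2 to 48.9 normalised CPM in CTR and from 41.6 through 49.9 to 57.4 in RSD. CTR 23 lay well below the other libraries, and 4 RSD libraries lay above the highest control. The log2 fold change was 0.18 (95% interval −0.10 to 0.46, limma adjusted p = 0.748), and 0.091 without CTR 23. Genes of the Vwf granule and of haemostasis showed no shared side, with 5 of 9 tested above 0, a median of 0.00082 and 0 past either threshold. Cd63, a granule membrane protein also found in other cells, had a log2 fold change of −0.17.

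Egfl7 (ENSRNOG00000019388), whose intron also carries the endothelial miR-126, ran from 20.4 through 33.4 to 47.4 normalised CPM in CTR and from 22.1 through 35.9 to 48.7 in RSD. Its coefficient of variation was 28.2% in CTR and 25.5% in RSD, where counting gives 10.5% and 10.1%, and the groups overlap almost entirely. Its log2 fold change was 0.18 (95% interval −0.20 to 0.56, limma adjusted p = 0.823), moving to 0.060 without CTR 24 and to 0.31 without RSD 34.

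Cav1 (ENSRNOG00000056836), the caveolar coat protein, is abundant in endothelium but also made by smooth muscle, fibroblasts and fat cells. It ran from 26.6 through 44.0 to 50 normalised CPM in CTR and from 21.8 through 37.2 to 54.0 in RSD. CTR 22, RSD 33 and RSD 35 were low, at 26.6, 21.8 and 28.4, while RSD 34 and RSD 40 were the highest. Its log2 fold change was −0.17 (95% interval −0.56 to 0.21, limma adjusted p = 0.843), and leaving out 1 library moved it between −0.30 (without CTR 22) and −0.025 (without RSD 33). Egfl7 was high where Cav1 was low in CTR 22 and RSD 33, and low where Cav1 was highest in RSD 34. The ratio of Egfl7 to Cav1 thereby ran from 0.505 (CTR 24) to 1.78 (CTR 22) in controls and from 0.410 (RSD 34) to 2.07 (RSD 33) in RSD.

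All 8 other caveolae genes were tested, 4 above 0 and 4 below, with a median of −0.01. At an unadjusted p under 0.05, 1 was higher and 1 lower. Cav3, the muscle caveolin, measured 93.6 and 114 normalised CPM (log2 fold change 0.29, unadjusted p = 0.02, limma adjusted p = 0.497). Sdpr, which encodes cavin 2 of the endothelial coat, measured 561 and 487 (−0.21, unadjusted p = 0.0273, adjusted p = 0.517). Ptrf, which encodes cavin 1, had 0.16 (adjusted p = 0.705).

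The markers did not vary as 1 block across libraries. As deviations from the group mean, they gave a median correlation of 0.012 over 36 pairs of markers across the 12 libraries, with 18 pairs above 0 and extremes of −0.614 (Egfl7 with Cav1) and 0.615 (Tie1 with Flt1), given as a description without a test. With 34 to 230 reads behind a value, counting error lowers such correlations, and the libraries share their scaling. CTR 24 held the lowest value of 4 markers (Flt1, Tek, Cdh5 and Egfl7), and RSD 39 the highest of 3 (Vwf, Kdr and Eng). The genes whose deviations were most like the mean deviation of the 9 markers, among 4772 others with at least 10 CPM, were Dchs1, Mpdz, Kitlg, Khdrbs1 and Notch1, with likeness (Pearson r over the 12 libraries, no test) of 0.828 to 0.851. As the highest of 4772 correlations over 12 libraries, these values were high by selection. How high they would be by chance was not tested.

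**Figure D3:**
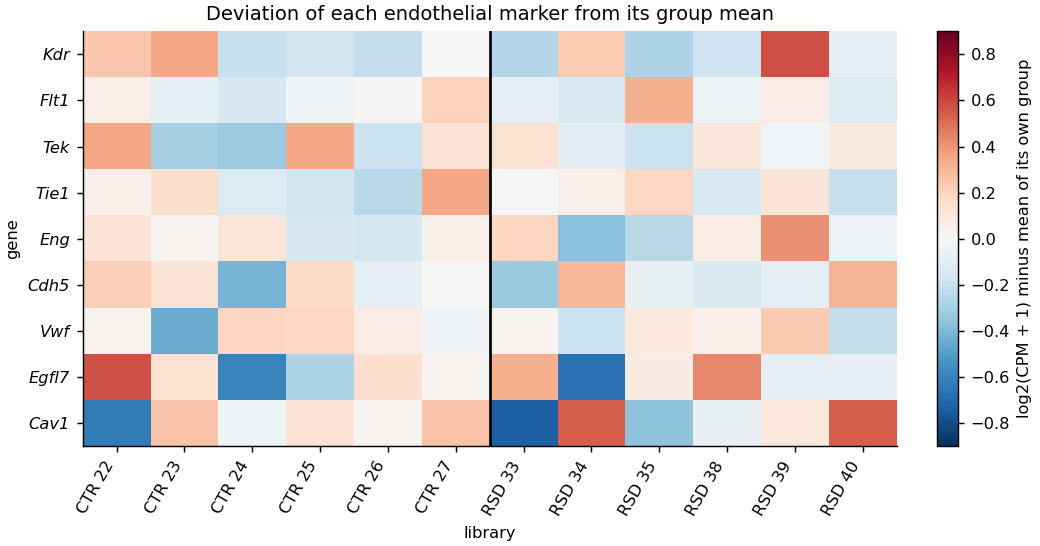
Deviation of each endothelial marker (rows) from the mean of its own group on the log2(CPM + 1) scale, by library (columns), red above and blue below. Cav1 is low in CTR 22 and RSD 33, where Egfl7 is high, and no library is red or blue for all 9 markers.

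Summed over the 9 markers, the level ran from 306 through 342 to 365 normalised CPM in CTR and from 347 through 362 to 407 in RSD, with means of 340 ± 22.9 and 366 ± 21.2 (SD, n = 6 each; no test, since the members were chosen with results known). The groups overlap: CTR 22 and CTR 27 lay above the RSD median, and RSD 39 lay apart from the other RSD libraries at the top. The 37 other genes of endothelial identity summed to 1211 ± 42.9 in CTR and 1204 ± 87.8 in RSD. Of the 30 tested among them 19 lay above 0 and 11 below, with a median of 0.03, and 0 passed after adjustment. Adgrl4, an orphan adhesion receptor of vessels, measured 18.9 and 11.2 normalised CPM (log2 fold change −0.72, SE 0.21, unadjusted p = 0.00169, limma adjusted p = 0.365), the only 1 of the 30 with an unadjusted p under 0.05. Fabp4, a fatty acid carrier of capillaries, had −0.21, and Palmd 0.29 (unadjusted p = 0.0664 and 0.0929). Ccm2l was listed at 0.

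No gene that marks a type of vessel passed after adjustment. Of 8 tested Notch and arterial genes 5 lay above 0, with a median of 0.06 and 0 past either threshold. Efnb2, an arterial ephrin, had −0.35, Notch1 0.15 and the arterial connexin Gja4 −0.17. The venous genes Ephb4 and Nr2f2 had −0.32 and 0.06. All 4 tested lymphatic genes lay below 0 (median −0.40), with Pdpn, podoplanin, at 7.40 and 4.69 normalised CPM (log2 fold change −0.57, unadjusted p = 0.0217, limma adjusted p = 0.497), Ccl21 at −0.56 and Lyve1 at −0.24. Pdpn and Ccl21 (6.26 and 3.85 normalised CPM) rest on few reads. The 6 listed lymphatic genes summed to 37.85 to 72.7 in CTR, highest in CTR 22, and to 38.5 to 57.5 in RSD, so these sums overlap. For Pdpn by itself every RSD library lay below every control. Of all 7511 genes tested, 22 (0.293%) had groups that do not overlap, in either direction. Of 3 tested endocardial genes Cytl1 had 0.50 (unadjusted p = 0.0258, adjusted p = 0.517), Cdh11 0.40 and Tmem100 −0.09.

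Of 16 tested endothelial transcription factors 10 lay above 0 (median 0.11) and 0 passed either threshold. Epas1, the hypoxia-inducible factor of endothelium, had −0.19, Klf4, a factor induced by flow, 0.29, and Meox2, of capillary cells, 0.46. For nitric oxide and prostacyclin genes 5 of 9 tested lay above 0 (median 0.09), again with 0 past either threshold. Gucy1a3, of the nitric oxide receptor, had 0.30, and Nosip, which binds the endothelial synthase, 0.18.

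Markers of the neighbouring cell types are given beside these results because Eng, Tek and Cav1 are not made by endothelium alone. The 15 smooth muscle and pericyte genes summed to 996 to 1650 normalised CPM in CTR and 1113 to 1257 in RSD, and of 13 tested 9 lay below 0, with Mcam (−0.44) and Vtn (−0.42) at an unadjusted p under 0.05, and Rgs5 at −0.45. The 13 fibroblast genes summed to 1303 to 1603 and 1260 to 1412, and of 11 tested 3 lay above 0 and 8 below, with Col3a1 (−0.38) and Gsn (−0.28) at an unadjusted p under 0.05 and Col1a1 at −0.26. The 14 macrophage genes summed to 154 to 308 and 164 to 199, and of 12 tested 3 lay above 0 and 9 below, with Fcer1g at −0.56 and an unadjusted p of 0.0116, Lyz2 at −0.29 and Csf1r at −0.30. The macrophage marker Cx3cr1 was listed at 0. Medians were −0.15 for the smooth muscle and pericyte list, −0.03 for the fibroblast list and −0.12 for the macrophage list. Red blood cell genes summed to 2391 to 13737 and 2425 to 26754, and of 6 tested 5 lay above 0, with Ahsp at 0.86, Hba-a2 at 0.67 and Slc4a1 at 0.33. Platelet genes, relevant to Vwf, summed to 4.45 to 38.7 and 8.06 to 38.5, with Pf4 at 0.35 and Treml1 at 0.36. Of the 8 genes of fat and mesothelium only Wt1 was tested (0.37). Of 13 tested cardiomyocyte genes 5 lay above 0 and 8 below, with a median of −0.012, and those of smallest p were Mb (0.25), Tnni3 (−0.15) and Ryr2 (0.13). The part of these cell types in the marker values was not tested.

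**Figure D4:**
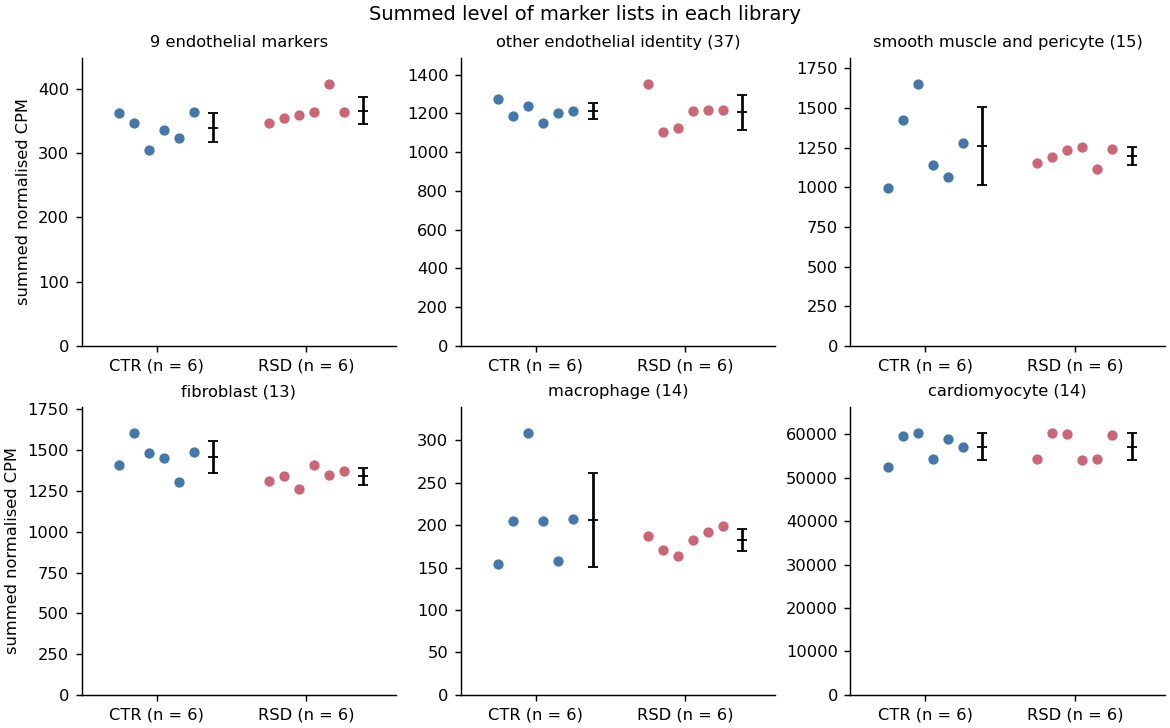
Summed normalised CPM (y axes, from 0) of the endothelial markers and of 5 other marker lists, with the number of genes summed in brackets, in each library of CTR (blue) and RSD (red), with the group mean and SD in black. The endothelial sum is 340 ± 22.9 in CTR and 366 ± 21.2 in RSD, and the groups overlap in all 6 panels.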

How the data were processed

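Messenger RNA of 12 left ventricle punches was sequenced as 3' end libraries (QuantSeq forward kit, 100 ng of total RNA), per the labels' protocols. Per the submitters' processing notes, the genome build was rn6 and the tools were STAR (2.6.0a), bcl2fastq, DESeq2 and HTSeq (0.9.1), with no roles given. The authors deposited 1 table of CPM values per gene, not divided by transcript length. Low values were whole multiples of 1 step per library, so reads could be recovered: 100% of values came out whole within 0.1 read. CPM was divided by TMM factors (0.913 to 1.12) and log2(CPM + 1) was tested with limma (trended variance, two-sided, Benjamini-Hochberg over 7511 genes kept by filterByExpr, minimum count 10, on recovered reads). Fold changes on this scale understate low genes. edgeR on the recovered reads called 2 genes, as did limma. Software: DESeq2 1.42.0, edgeR 4.0.16 and limma 3.58.1 in R 4.3.3.

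Groups come from the titles and share no replicate numbers. The members and lists were chosen with earlier results of these data known. All members are named, with up to 3 genes of smallest p per list and the 5 most alike. Some genes that this rule names are not reported here. RefSeq sequences (GRCr8) were matched by symbol for 6 of 9 genes. Alternatives were other scalings, filters, pseudocounts and tools, and leaving out each library. Counting error, stated for Eng, Tek and Egfl7, covers reads, not molecules.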

Additional observations from a re-analysis of the deposited data

Results flagged for a closer look

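Among 138 sets of 6 libraries (1 gene or sum in 1 group), 4 had a library far from the rest, and about 7 would by chance. The distance to its closest neighbour divided by the whole range of the set is given for each. For the summed endothelial markers RSD 39 was the highest RSD library, at 0.711. For Ccl21, a lymphatic chemokine, CTR 22 was the highest control, at 0.692. For the transcription factors Epas1 and Klf4, RSD 33, which had the fewest reads, was the lowest (0.743) and the highest (0.633) RSD library.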

How the results depend on the processing

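No paired analysis was possible because the groups share no replicate numbers. Under 22 alternatives 0 markers were called and 2 had an unadjusted p under 0.05, which were Eng and Tek in each. The median over markers ran from 0.02 (without RSD 35) to 0.13. The difference between group means of the log2 summed markers, taken for 15 of the alternatives, ran from 0.07 to 0.13. Genes called overall numbered 0 with no filter and 1 with at least 50 reads in 6 libraries, and those at an unadjusted p under 0.05 numbered 953 and 334, where a different number of genes was tested. Leaving out 1 library gave 0 to 41 and 451 to 990, the highest of both without CTR 22. The log2 fold change of Tie1 turned negative with CPM as deposited (−0.025) and in 5 of 12 fits without 1 library, and over the 12 ran from −0.035 to 0.084. That of Cdh5 turned positive without RSD 33 (0.014) and ran from −0.137 to 0.014 over such fits. The likeness of the 5 most alike genes lay between 0.72 and 0.929 when 1 library was left out. These genes were picked on all 12 libraries and not picked anew, so this range does not show that the same genes would be found again. Depth limits Tek most, at 34 to 78 reads per library.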
